A study of Rattus norvegicus with 4 samples.

Results

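The Rab genes code for small GTPases that mark the membranes of the cell. Members were taken as every non-control probe whose accession maps to a rat symbol of Rab, a number and at most a pair of further letters, which gave 70 probes of 54 genes among the 16579 named genes with a value. Partner proteins that share the prefix were left out, among them Rab3ip and Rab5if. The genes Rab22a, Rab37, Rab42 and Rab44 had no probe matched here and were not analysed.

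A Rab protein cycles between a GDP-bound form held in the cytosol and a GTP-bound form on a membrane, where it recruits tethers, motors and other effectors. Exchange factors switch it on, GTPase-activating proteins switch it off, and a prenyl anchor at its end holds it in the membrane. In macrophages an ingested particle lies in a phagosome that is first marked by Rab5 and then by Rab7, as it matures towards the lysosome.

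The cells were NR8383, a single macrophage line derived from lung lavage of a normal rat and held at passage 20. All 4 cultures had been exposed for 4 h to NRCWE001, a titanium dioxide (TiO2) material, at 3 cm2 of particle surface per cm2, and each gave RNA for 1 one-colour array. Unexposed cells, which the series' design text names, were not analysed here, so no value says whether the particles raised or lowered a transcript. The design text calls the 4 replicates biological. Each culture had 1 array on 1 shared slide, so spread between cultures and spread from the array cannot be told apart, and in bulk RNA fewer cells and less RNA per cell cannot be told apart either.

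On the 4 arrays between 15314 and 16708 of 45598 probes gave a signal well above background, with 0 spots saturated. All 10 measured macrophage markers were detected on every array, and their signal summed to 550 to 645 times the array's 75th percentile. Of 5 epithelial markers (Epcam, Sftpc, Sftpb, Krt8 and Cdh1) 0 were detected on all arrays, with a sum of 0.0387 to 0.0701. Of 3 measured lymphoid markers 0 were detected on all arrays (sum 0.0645 to 0.123), with Cd3d on 3 arrays and Cd3e on none. The 3 measured markers of granulocytes and mast cells (Elane, Cpa3 and Kit) were on none (0.0227 to 0.0433). Of 4 markers of fibroblasts and endothelium, Pecam1 and Cdh5 were detected (1.11 to 1.37). The part of such cells in the Rab levels was not tested.

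Of the 54 Rab genes, 38 (70.4%) were detected on all 4 arrays, where the share among the 16579 genes as a whole was 45.7%. A gene counted as detected on an array when the scanner software marked over 0.5 of the spots of at least 1 of its probes as well above background. On 1 to 3 arrays 2 Rab genes were detected, and on no array 14, where 48.2% of all genes were on none. Without any 1 of the 4 arrays the count of 38 was the same, and it was 40 with a more lenient flag, which was set for 55.3% of all genes.

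Detection divided several families of near relatives. Rab5b and Rab5c were detected and Rab5a was not, Rab27a was and Rab27b was not, Rab32 was and Rab38 was not. Rab6a, Rab9a, Rab33b and Rab3d were detected, while Rab6b, Rab9b, Rab33a and the genes Rab3a, Rab3b and Rab3c were not. Except for Rab27b, with 3 probes, each undetected gene named here rests on 1 probe. Whether these probes can bind their transcripts was not tested. Because detection divided these families, the 250 bases before the start of some of their genes are shown. They are from RefSeq on build GRCr8, with each CG dinucleotide in capitals. Upstream regions rich in CG are typical of genes used in many tissues.

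The 3 Rab5 genes are shown first, since their proteins mark the early phagosome and detection divided them. The window of Rab5a lies at chr9:6720877-6721126 on the plus strand, that of Rab5b at chr7:1712737-1712986 on the minus strand and that of Rab5c at chr10:86166450-86166699 on the minus strand.
Rab5a: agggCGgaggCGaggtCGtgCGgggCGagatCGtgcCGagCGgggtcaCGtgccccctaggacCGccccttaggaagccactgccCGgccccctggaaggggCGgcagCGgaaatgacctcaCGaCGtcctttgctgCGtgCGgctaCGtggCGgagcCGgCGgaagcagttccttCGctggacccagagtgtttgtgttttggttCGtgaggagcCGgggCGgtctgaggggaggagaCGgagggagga
Rab5b: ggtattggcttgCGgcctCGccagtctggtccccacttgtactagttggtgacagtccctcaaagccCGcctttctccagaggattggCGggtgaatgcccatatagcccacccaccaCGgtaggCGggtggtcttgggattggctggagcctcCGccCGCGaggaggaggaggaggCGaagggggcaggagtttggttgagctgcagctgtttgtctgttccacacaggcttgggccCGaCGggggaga
Rab5c: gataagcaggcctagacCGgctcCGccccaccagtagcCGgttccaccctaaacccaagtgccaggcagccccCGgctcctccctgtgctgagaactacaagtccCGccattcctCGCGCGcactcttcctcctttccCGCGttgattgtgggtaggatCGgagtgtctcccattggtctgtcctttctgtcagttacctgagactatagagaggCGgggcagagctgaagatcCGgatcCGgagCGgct

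The undetected Rab5a had 26 CG dinucleotides in this window, the detected Rab5b 12 and Rab5c 15. Among these 3 genes the undetected one thus had the most CG. The pair of Rab27 genes, whose proteins move secretory lysosomes and granules, is shown next. The window of Rab27a lies at chr8:82663123-82663372 on the plus strand and that of Rab27b at chr18:65938584-65938833 on the minus strand.
Rab27a: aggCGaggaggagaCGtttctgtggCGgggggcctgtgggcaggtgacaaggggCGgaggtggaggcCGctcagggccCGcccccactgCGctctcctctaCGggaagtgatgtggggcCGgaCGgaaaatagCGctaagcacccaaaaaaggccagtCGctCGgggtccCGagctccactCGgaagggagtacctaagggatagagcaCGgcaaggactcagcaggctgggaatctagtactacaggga
Rab27b: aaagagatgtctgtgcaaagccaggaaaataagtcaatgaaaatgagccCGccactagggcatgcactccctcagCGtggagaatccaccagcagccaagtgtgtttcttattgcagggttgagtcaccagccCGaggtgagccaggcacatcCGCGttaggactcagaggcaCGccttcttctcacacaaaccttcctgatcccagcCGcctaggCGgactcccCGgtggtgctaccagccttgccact

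Here the detected Rab27a had 16 CG dinucleotides and the undetected Rab27b had 9. The late endosome genes Rab7a and Rab7b were both detected, and are shown because their windows differ widely in CG. Rab7a's lies at chr4:122064186-122064435 on the minus strand and Rab7b's at chr13:45673195-45673444 on the plus strand.
Rab7a: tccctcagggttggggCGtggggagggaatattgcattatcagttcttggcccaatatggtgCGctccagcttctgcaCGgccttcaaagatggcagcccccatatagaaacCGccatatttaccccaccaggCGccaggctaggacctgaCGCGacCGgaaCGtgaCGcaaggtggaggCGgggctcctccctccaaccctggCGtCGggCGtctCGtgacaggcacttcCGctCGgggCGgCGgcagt
Rab7b: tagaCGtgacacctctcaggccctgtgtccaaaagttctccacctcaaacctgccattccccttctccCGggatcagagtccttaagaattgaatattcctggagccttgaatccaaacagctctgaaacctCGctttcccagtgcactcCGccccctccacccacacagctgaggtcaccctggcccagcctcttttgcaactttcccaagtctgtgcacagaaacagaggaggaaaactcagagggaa

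Rab7a had 19 CG dinucleotides and Rab7b 4. A window was matched for 45 of the 54 genes. The 32 detected on all arrays had a median of 18 CG dinucleotides, from 3 (Rab14) to 35 (Rab35), and the 11 detected on none a median of 13, from 6 (Rab17) to 26 (Rab5a). Over all measured genes with a window, the medians were 17 for 6378 detected on all arrays and 5 for 6370 detected on none. The ranges of detected and undetected Rab genes overlapped, and these values are a description without a test.

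**Figure D1:**
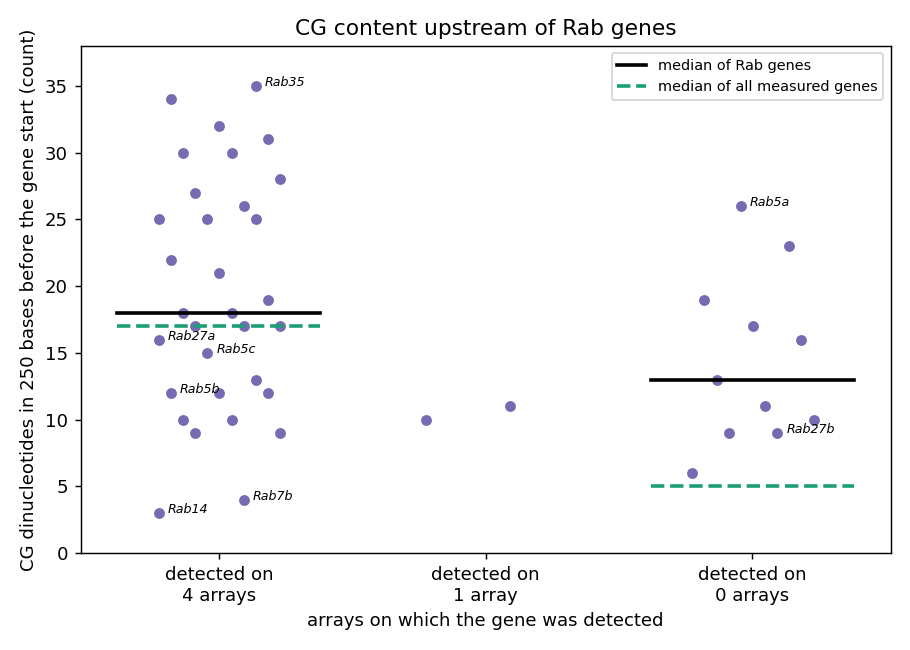
CG dinucleotides in the 250 bases before the gene start (vertical axis, count) for 45 Rab genes, by the number of arrays on which the gene was detected. Each point is a gene; solid lines are medians of Rab genes (18 and 13) and dashed lines medians of all measured genes (17 and 5), and Rab5a (26) stands at the top of the undetected genes.

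Each level below is the log2 processed signal of a gene's brightest probe, relative to the 75th percentile of its array, and is not set against that of another probe. Among the Rab GTPases of the early endosome and phagosome, 7 of 10 genes were detected on all arrays. Rab5c, which drives fusion of early endosomes, lay at 2.19, 2.25, 2.05 and 2.22 on replicates 1 to 4 (mean 2.17 ± 0.09, SD, n = 4). Its relative Rab5b lay at 1.66, 1.55, 1.52 and 1.69 (1.61 ± 0.08). The arrays differed little in both, with replicate 3 lowest. RefSeq names 1 pseudogene each of Rab5c, Rab7a, Rab11a, Rab12, Rab18 and Rab1b and 6 of Rab1a, which makes the probes of these genes less certain.

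The probe of Rab5a gave processed signals of 3.26, 3.42, 9.14 and 6.04 intensity units. The lowest signals of any detected probe on those arrays were 13.5, 15.8, 16.6 and 16.3 units. Rab5a was thus not well above background on any array, although a more lenient flag was set on 2. It rests on 1 probe printed once, and whether that probe can bind its transcript was not tested.

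Rab31, which works between the trans-Golgi network and endosomes, had the smallest spread of all detected Rab genes. It lay at 2.82, 2.88, 2.92 and 2.88 (2.87 ± 0.04, SD, n = 4). Rab4a, of rapid recycling from early endosomes, lay at 0.47, 0.60, 0.51 and 0.61 (0.55 ± 0.07), and its relative Rab4b at a mean of 2.68 ± 0.11. Rab20, linked to phagosome maturation in macrophages, lay at 0.47, 0.75, 0.59 and 0.86 (0.67 ± 0.17). Replicate 1 was the lowest for Rab31, Rab4a and Rab20. Rab21, of integrin traffic, lay at 0.24 ± 0.16.

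Rab34, known from membrane ruffles and phagosomes, was at the edge of detection. Its probe was printed on 10 spots, with median signals of 9.31, 11.9, 18.6 and 18.7 units on replicates 1 to 4. The flag was set on 2 of 10 spots on replicate 1, 0 of 10 on replicate 2, 6 of 10 on replicate 3 and 3 of 9 on replicate 4, so that only replicate 3 passed. Rab17, known from epithelial transcytosis, was detected on no array, with signals of 3.54 to 4.74 units.

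Of the Rab GTPases of late endosomes and lysosomes, 6 of 8 genes were detected. Rab7a, needed for fusion with lysosomes, lay at -0.77, -0.32, -0.04 and 0.03 (-0.28 ± 0.36, SD, n = 4), a 1.74-fold range. Replicate 1 was the lowest, and without it the mean was -0.11 ± 0.19. Its relative Rab7b, of traffic from endosomes to the Golgi, moved otherwise, at -0.66, -1.02, -0.98 and -0.92 (-0.90 ± 0.16), with replicate 1 the highest.

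Rab32, of lysosome-related organelles, lay at -0.87, -0.77, -0.64 and -1.04 (-0.83 ± 0.17, SD, n = 4), with replicate 4 the lowest. Its relative Rab38, best known from melanosomes, gave signals of 5.18, 3.68, 4.13 and 4.08 units and was not well above background. Rab9a, of return transport from late endosomes to the Golgi, lay at -3.21, -3.75, -3.23 and -3.45 (-3.41 ± 0.25). Its relative Rab9b gave 3.48 to 4.94 units on the 4 arrays and was not detected. Rab24, linked to autophagy, lay at 1.25, 1.26, 1.25 and 1.36 (1.28 ± 0.05), the first 3 arrays almost equal. Rab29, a partner of the kinase LRRK2, lay at 2.03 ± 0.14.

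Of the Rab GTPases of recycling and the plasma membrane, 10 of 11 genes were detected, the exception being Rab15. Rab11a, the main GTPase of recycling endosomes, lay at 2.40, 2.28, 2.23 and 2.50 (2.35 ± 0.12, SD, n = 4), and Rab11b at a mean of -0.23 ± 0.13. Rab14, of traffic between Golgi and endosomes, lay at 3.71, 3.19, 3.34 and 3.30 (3.39 ± 0.22). Rab35, of recycling at the cell surface, lay at 3.77, 3.84, 3.65 and 3.84 (3.77 ± 0.09). Replicate 1 was the high array for Rab14, and replicate 3 the low one for Rab35. Rab10, of recycling and of receptor delivery to the surface, lay at -1.06, -1.37, -0.99 and -1.47 (-1.22 ± 0.23), with replicates 1 and 3 above replicates 2 and 4.

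Rab8a, of membrane protrusions, lay at 3.34 ± 0.11 and Rab8b at -1.25 ± 0.16 (SD, n = 4). Rab12 lay at 0.92 ± 0.14 and Rab13, known from cell junctions, at 0.34 ± 0.10. Rab25, a relative of Rab11 known mainly from epithelium, was detected on all arrays although the 5 epithelial markers were not. Its signals were 35.7, 33.6, 45.6 and 41.2 units (level -3.47 ± 0.15). The spots of Rab15, 8 to 10 per array, had medians of 3.20 to 3.73 units, and 0 of them were above background.

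Of the Rab GTPases of the endoplasmic reticulum and Golgi, 8 of 14 genes were detected. Rab1a and Rab1b, which carry cargo from the endoplasmic reticulum to the Golgi, lay at 3.13 ± 0.12 and 3.90 ± 0.13 (SD, n = 4). Rab2a and Rab2b serve the same route, and Rab2a lay at 1.82 ± 0.14. Rab2b lay at -1.20, -0.48, -0.69 and -0.59 (-0.74 ± 0.32), and replicate 1 was again the lowest.

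Rab6a, of return transport through the Golgi, lay at -2.33 ± 0.11, while the 10 spots of its relative Rab6b had medians of 3.61 to 3.85 units, 0 of them above background. Rab18, of lipid droplets, lay at 0.14 ± 0.22, Rab33b, which binds an autophagy protein, at -0.53 ± 0.13, and Rab43 at -0.46 ± 0.11. Rab30, Rab33a, Rab36 and Rab39a were not detected, at 3.26 to 5.63 units. Rab19 gave 5.33, 10.1, 26.5 and 3.79 units and was detected on replicate 3 alone, so its arrays did not fall together.

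Of the Rab GTPases of regulated secretion, 3 of 7 genes were detected. Rab27a lay at -1.51, -1.56, -1.30 and -1.40 (-1.44 ± 0.11, SD, n = 4). All 3 probes of its relative Rab27b were undetected on every array, the brightest at 3.35 to 5.77 units. Rab3d, found in secretory cells outside the nervous system, lay at -0.68 ± 0.09, while the synaptic vesicle genes Rab3a, Rab3b and Rab3c gave 2.95 to 4.78 units. Rab26 lay at -2.48 ± 0.15.

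The other 4 Rab genes were all detected. Rab28, of the cilium, lay at 1.37, 1.27, 1.37 and 1.29 (1.32 ± 0.06, SD, n = 4), and Rab23, a regulator of hedgehog signalling, at -2.66 ± 0.19. The dimmer of the 2 probes of Rab23 gave 3.47, 6.17, 10.9 and 11.6 units on replicates 1 to 4. It was well above background on no array, although the more lenient flag was set on all 4, so the detection of Rab23 rests on its brighter probe. Rab40b and Rab40c code for Rab proteins with a domain that recruits ubiquitin ligases. Rab40b lay at -2.36, -1.37, -1.41 and -1.29 (-1.60 ± 0.50), so that replicate 1 stood below the other arrays. Rab40c lay at -4.01, -4.11, -3.51 and -3.40 (-3.76 ± 0.35), replicates 3 and 4 above 1 and 2.

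**Figure D2:**
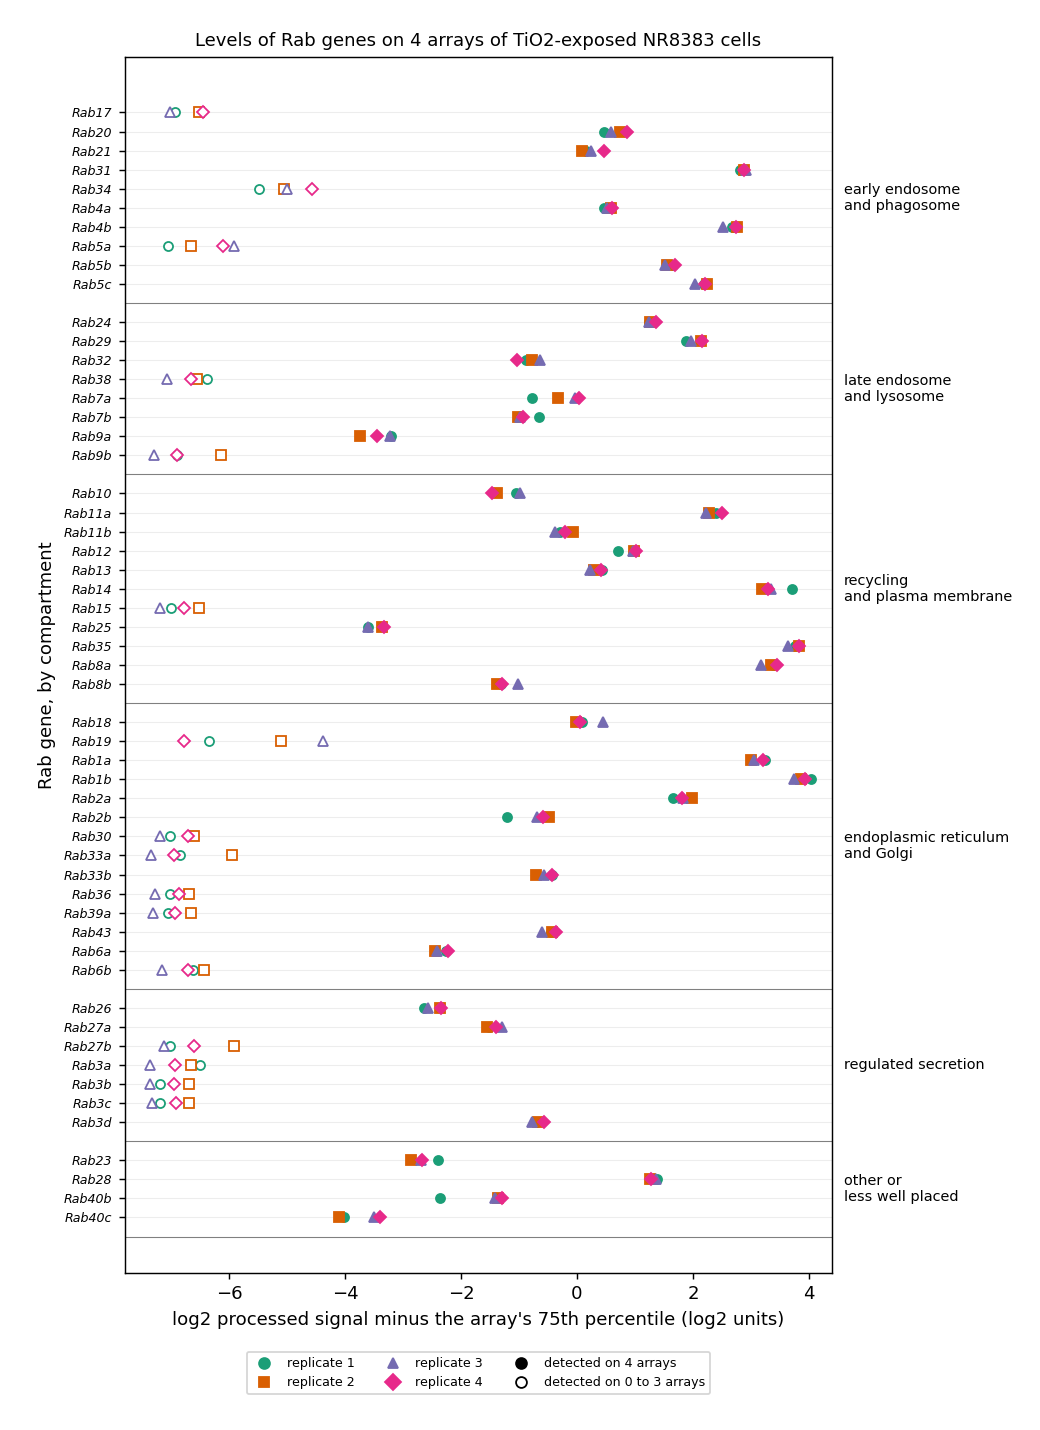
Level of the brightest probe of each of 54 Rab genes (horizontal axis, log2 relative to the array's 75th percentile) on the 4 arrays, grouped by compartment; filled marks are genes detected on 4 arrays. The arrays lie close together for most filled genes, and the 16 open genes lie at the low end; the place of different genes along the axis is not a comparison, since probes differ.

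The spread between the 4 exposed cultures was then tested for each gene against the spread of genes of like level. With limma's prior variance, 0 of the 38 Rab genes tested passed an adjusted p of 0.05 and were called variable, where 0.515% of 7570 genes were. An unadjusted p under 0.05 was found for 3 Rab genes, where 6.67% of all genes had one. These were Rab40b (SD 0.50, limma adjusted p = 0.188), Rab7a (SD 0.36, adjusted p = 0.356) and Rab2b (SD 0.32, adjusted p = 0.669). Each of the 3 was lowest on replicate 1.

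With replicate 1 left out, limma gave 0 of the 38 Rab genes an unadjusted p under 0.05. The SD of Rab40b was then 0.06, that of Rab7a 0.19 and that of Rab2b 0.11. The probes of Rab40b and Rab2b lay at columns 18 and 16 of the array, and that of Rab7a at column 76. Over all tested genes, the median absolute deviation on replicate 1 was 0.131 at columns 1 to 72 (3586 genes) and 0.0814 beyond (3984 genes), while on the other arrays the sides were closer, at 0.0884 and 0.0901, 0.154 and 0.135, and 0.106 and 0.115. The part of array position in these results was not tested. Another background correction was normexp with an offset of 50, on median spot signals in place of the processed signals. With it 3 Rab genes were called, Rab2b (limma adjusted p = 0.00873), Rab40b (0.0247) and Rab20 (0.0298). The probe of Rab20 lay at column 24. Under this correction 206 of 7568 genes were called in all. With the processed signals, the unadjusted limma p of Rab2b was 0.041 in the main setting. It was 0.400 with the mean over its detected probes and 0.321 with spots beyond column 72 alone.

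**Figure D3:**
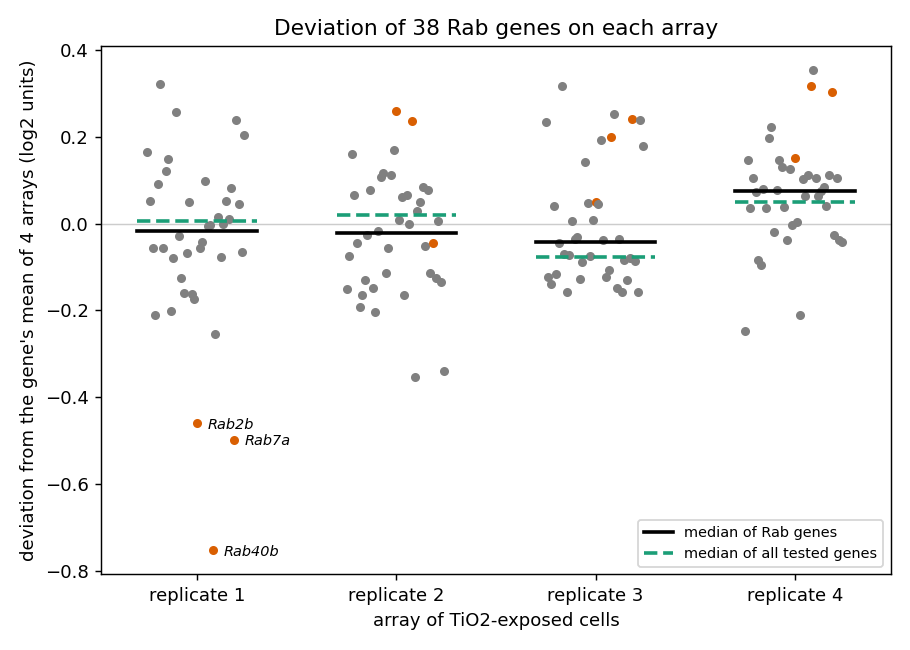
Deviation of each of the 38 detected Rab genes from its own mean of 4 arrays (vertical axis, log2 units), by array; solid lines are the medians of Rab genes and dashed lines those of all tested genes. Rab40b, Rab7a and Rab2b (coloured) lie lowest on replicate 1, at -0.75, -0.50 and -0.46.

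The SD of the 38 Rab genes between arrays had a median of 0.134 on the log2 scale, with quartiles of 0.108 and 0.173. Over all 7570 genes tested the median was 0.163, with quartiles of 0.116 and 0.231. Of the 38, 25 lay below the median of all genes. These SDs are given as a description. The median SD was 0.09 in the early endosome class, 0.13 in the Golgi class, 0.14 in the recycling class, 0.11 in the secretion class, 0.17 in the late endosome class and 0.27 in the other 4 genes. By Dixon's ratio of gap to range, 2 Rab genes, Rab40b and Rab24, had 1 array far from the others, where 5.46% of all genes tested did.

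**Figure D4:**
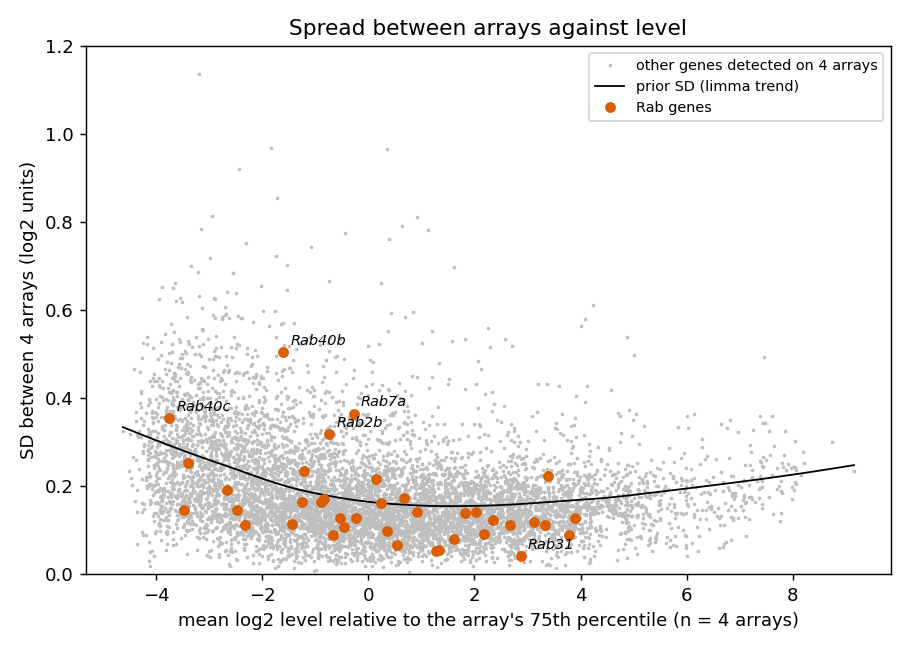
SD between the 4 arrays (vertical axis, log2 units) against mean level (horizontal axis, log2 relative to the array's 75th percentile) for 7570 genes, Rab genes in colour; the line is limma's prior SD. Rab40b (0.50), Rab7a (0.36) and Rab2b (0.32) are among the Rab genes above the line.

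By array, the shifts of the Rab genes were small. Their median deviation was -0.02, -0.02, -0.04 and 0.08 on replicates 1 to 4, where that of all tested genes was 0.00, 0.02, -0.08 and 0.05. On replicate 4, 28 of 38 Rab genes lay above their own mean (73.7%, against 62.2% of all genes), and on replicate 3, 15 of 38 did (39.5%, against 34.8%). The Rab share was the lower one on replicate 1, with 16 of 38 (42.1%, against 51.4%), and on replicate 2, with 17 of 38 (44.7%, against 56.6%).

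A second look at the arrays came from 11 Rab genes that had at least 2 probes detected on all arrays. In 8 of them the probes of a gene had the same lowest array, and in 5 the same highest. The same counts over all genes with several probes are not given here, so these are a description. Probes of a gene on an array measured the same RNA, so their agreement does not tell culture from array. The 2 probes of Rab28 deviated from their means alike to within 0.0071 on each array. Those of Rab7b were both highest on replicate 1, by 0.24 and 0.28, and both lowest on replicate 2. In Rab2b the probes differed. The one at column 16 was 0.46 below its mean on replicate 1, and the one at column 73 was 0.03 below it there and lowest on replicate 4. In Rab14 the brightest probe, at column 24, was 0.32 above its mean on replicate 1, and the other probes were at 0.08 and -0.02.

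The proteins that run the Rab cycle were looked up in 5 lists. Of 9 genes of the membrane cycle, 8 (88.9%) were detected on every array (45.7% over all genes), and 0 were called variable (0 with an unadjusted p under 0.05 by limma). Gdi2, which extracts GDP-bound Rab proteins from membranes, lay at 1.61 ± 0.26 (SD, n = 4). Chm, the escort protein that presents new Rab proteins to the prenyl transferase, lay at -2.86, -2.02, -2.72 and -2.21 (-2.45 ± 0.40). Its relative Chml was the member not detected.

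Of 35 measured exchange factors 28 (80%) were detected. Rabgef1, which activates Rab5, lay at 0.62 ± 0.24, and Rin2, another exchange factor of that kind, at 1.92 ± 0.14 (SD, n = 4), while Rin1 was not detected.

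Of 21 measured GTPase-activating proteins 15 (71.4%) were detected. Tbc1d1 lay at 2.09 ± 0.08 and Tbc1d5, which acts on Rab7, at 1.32 ± 0.10 (SD, n = 4), Tbc1d8 was not detected, and Tbc1d10c had the largest SD of the list (-2.13 ± 0.25). None was called variable, and 0 had an unadjusted p under 0.05 by limma. Of the CORVET and HOPS tethers, which bind Rab5 and Rab7 and bring membranes together, all 6 measured members were detected. Vps11 lay at 0.66 ± 0.15, Vps16 at -2.45 ± 0.07 and Vps18 at 0.48 ± 0.12, and 0 of the 6 were called or had an unadjusted p under 0.05 by limma.

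Of 35 measured effectors 20 (57.1%) were detected, and 13 were on no array. Rabep1 and Rabep2, effectors of Rab5, lay at -2.16 ± 0.36 and 0.89 ± 0.14 (SD, n = 4), and Rbsn was detected on 3 arrays. Rilp, the effector that links Rab7 to the dynein motor, lay at -0.07 ± 0.22. Mlph and Unc13d, partners of Rab27a, lay at -1.42 ± 0.20 and -0.88 ± 0.36, while 4 measured synaptotagmin-like effectors of Rab27 (Sytl1, Sytl3, Sytl4 and Sytl5) were not detected. Lrrk2, a kinase of several Rab proteins, lay at -3.49, -4.20, -2.51 and -3.21 (-3.35 ± 0.70) and was highest on replicate 3. Of the 20 effectors tested 0 were called variable, and 4 had an unadjusted p under 0.05 by limma (Lrrk2, Optn, Fyco1 and Unc13d), where 6.67% of all genes had one. These 4, and Rilp and the Rab27 effectors, were chosen after their values were seen.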

How the data were processed

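RNA of 4 TiO2-exposed NR8383 cultures was measured on 4 arrays of 1 slide, with Cy3-labelled cRNA from 100 ng of RNA (integrity number above 7.5), per the labels' protocols. The deposited values are spot intensity from the scanner software, Agilent Feature Extraction 11.0.1.1 in the submitters' processing notes. Per the file headers, background had been subtracted and a spatial trend removed, with no scaling from array to array. The other deposited columns used, per the file headers, were flags and the median spot and background intensity.

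Spots flagged as outliers were left out (634 to 669 per array), and the deposited signals were put on a log2 scale relative to the 75th percentile of non-control spots of each array, then averaged per probe. Accessions were named by RefSeq's table of assembly GRCr8 (21109 of 45598 probes); 3658 of 16579 genes had several probes, of which the brightest gave the level. Values on every array are given for phagosome and endosome Rab genes chosen by name and for the 5 largest and 5 smallest SDs. They are also given for genes detected on 1 to 3 arrays and genes flagged by Dixon's ratio. Of the partner lists, the mean level or the detection is given for the first 3 measured members and the largest SD. Values on every array are given there for Chm and Lrrk2 alone. A few members of these lists are not reported here. The arrays' own annotation uses an older build, so the only coordinates printed are those of the GRCr8 windows.

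Each gene's variance between arrays, with 3 degrees of freedom, was set against a trended, robust prior (24.3 degrees of freedom; limma 3.58.1 in R 4.3.3) and the upper F tail adjusted by Benjamini-Hochberg over 7570 genes; the script was tested on simulated data. Alternatives were other detection flags, scalings, background correction, probe rules, priors and filters, and each replicate left out. The members and lists were chosen with earlier results of these data known. The number of arrays limits the precision.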

Additional observations from a re-analysis of the deposited data

Results flagged for a closer look

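Among the 38 Rab genes detected on all 4 arrays, 2 had 1 array far from the other arrays by Dixon's ratio of gap to range at its 95% critical value for 4 samples. This is 5.26% of them, where 5.46% of all tested genes were flagged and chance flags about 1 in 20. Rab40b was low on replicate 1 with a ratio of 0.889, at -2.36 against -1.41 to -1.29, and its probe was printed at column 18. Rab24 was high on replicate 4 with a ratio of 0.870, at 1.36 against 1.25 to 1.26, a range of 1.08-fold.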

How the results depend on the processing

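The number of Rab genes detected on all arrays was 38 without any 1 replicate, with flagged spots kept and by the brightest probe alone, and 40 with the lenient flag or when 1 array sufficed. The number called variable by limma's prior variance was 0 under quantile normalization, both scalings to detected probes, the mean over probes, other priors and no filter. It was also 0 with each replicate left out, and 3 with normexp, whose cause was not tested. With spots beyond column 72 alone it was 0 of 30, but this setting leaves out Rab40b, whose only probe lay at column 18. Over all genes these settings called 0 to 206, against 39. The median SD of Rab genes, 0.134, ran from 0.116 to 0.137 with each replicate left out and was 0.167 without a filter on dim genes, where all 54 genes entered. Other scalings moved all 38 levels by over 1 SD, with the same median shift in Rab genes as in all genes (2.63 with quantile normalization, 0.563 with the median and -1.72 with the 75th percentile of detected probes as scale). With flagged spots kept 24 of 38 moved by over 1 SD (median shift -0.157), with the mean over detected probes 10, and without any 1 replicate 0. The mean over detected probes lowered genes with several such probes, among them Rab35 from 3.77 to -0.11 and Rab11a from 2.35 to -0.08. Rab1b fell from 3.90 to 1.38 and Rab12 from 0.92 to -1.43, so these levels depend on the probe chosen. With normexp 27 moved, by unequal amounts (median shift 0.038), and the levels of 6 genes were over 1.5-fold higher than in the main setting, at -2.37 for Rab40c, -2.12 for Rab25, -2.17 for Rab9a, -1.80 for Rab23, -1.71 for Rab26 and -1.69 for Rab6a. Leaving out replicate 1 and columns 1 to 72 together, chosen after seeing the data, left 0 of 30 Rab genes called by limma and 0 with an unadjusted p under 0.05. Genes near the detection limit, such as Rab34 and Rab19, are limited by signal over background. No paired analysis was possible because the series holds 1 group here.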

Other observations

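Short motifs were counted on either strand in the 250 bases before the start of 45 Rab genes, as a description. The GC box GGGCGG was found in 35 of them (77.8%), against 45.3% of all 13553 measured genes with a window. Among genes detected on all arrays it was in 28 of 32 Rab genes (87.5%) and in 59.5% of all genes. TATAAA was found before 0 of 45 Rab genes and before 11.6% of all genes. Among genes detected on all arrays it was before 0 of 32 Rab genes and 6.54% of all genes. Among genes detected on none, 16.8% of all genes had it. The E-box CACGTG was found before 3 Rab genes, Rab5a, Rab21 and Rab31 (6.67%, against 6.81% of all genes), and CCAAT before 15 (33.3%, against 35.2%). GGGCGG contains a CG dinucleotide, so its count is not independent of CG content.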
